A study of Homo sapiens with 32 samples.

Results

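Azacitidine at 50 nM is the lowest dose in the series and was given to 2 of its 4 human T-cell lines, HH and H9. The 4 libraries with it were chosen by their labels and set against the 4 libraries of the same lines without azacitidine, so that 4 of the 32 libraries of the series were compared with 4 others. The groups are HH with 50 nM azacitidine, HH with 50 nM azacitidine and 1.25 nM romidepsin, H9 with 50 nM azacitidine, and H9 with 50 nM azacitidine and 1 nM romidepsin. Their counterparts are untreated HH, HH with 1 nM romidepsin, untreated H9 and H9 with 1 nM romidepsin. Each azacitidine library was paired with the library of its line that had the same romidepsin status, which gave 4 pairs. In HH the romidepsin dose differed within the pair (1.25 nM against 1 nM), so that pair differs in both drugs. All cultures ran for 96 h, with a single addition of romidepsin at time 0 and azacitidine renewed every day. The labels give HH and H9 as lines of cutaneous T-cell lymphoma, and each condition of a line is 1 library.

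Azacitidine, an analogue of cytidine, enters DNA and RNA in place of the natural base. In DNA it traps DNA methyltransferases, so that methylation is lost as cells divide and genes silenced by promoter methylation, such as germline genes, can be transcribed. Romidepsin inhibits histone deacetylases, and both drugs are used against T-cell lymphomas.

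The 8 libraries held 16175077 to 29431141 counts, and 15618 genes had enough counts to be tested. Levels are given as CPM, counts relative to the library total, and 3 counts correspond to between 0.102 and 0.185 CPM. Changes are log2 fold changes of 50 nM over no azacitidine with a standard error from edgeR's quasi-likelihood fit, and a gene was called at a Benjamini-Hochberg adjusted p under 0.05 over all genes tested in that test. The fit holds 16 single HH and H9 libraries, and nothing says that they came from repeated experiments. Its spread is what its terms leave over. In the 4-pair test that includes differences between lines, and between romidepsin states, in the response to each dose. Within a line it includes differences between romidepsin states. Technical spread enters both, and p-values measure this mixture and not a spread between repeated experiments. Markers of the T-cell lineage were present in both lines but differed between them. CD3E stood at 68.8 to 80.9 CPM in HH and 208 to 253 CPM in H9. LCK, the proximal kinase of the T-cell receptor, had 0 counts in 4 of 4 HH libraries and 299 to 320 CPM in H9. CD2 stood at 171 to 194 CPM in HH and at no more than 0.656 CPM in H9.

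Across the 4 pairs, 50 nM azacitidine raised 15 genes (0.096% of genes tested) and lowered 25 (0.16%), 40 of 15618 in all (0.256%). The increases were the larger changes: 12 of the 15 were at least 2-fold, against 2 of the 25 decreases. Mean levels without azacitidine ran from 0.0117 CPM (LOC100507194) to 33.0 CPM (GGT1) for the raised genes. For the lowered they ran from 6.21 CPM (LOC100130476) to 647 CPM (FNBP1). Small changes are harder to call at low levels, so the sizes of increases and decreases are not on equal terms. The phosphatidate phosphatase LPIN3, the cystatin CST7, the cytidine deaminase APOBEC3B and the TGF-beta inhibitor SMAD7 stood higher in each of the 4 pairs, and the sterol enzymes LSS and FDFT1, the dynein heavy chain domain gene DNHD1, the mTOR complex subunit MAPKAP1 and the NF-kB inhibitor TNFAIP3 lower in each. Of the 40 genes, 32 (80%) moved the same way in all 4 pairs, as did 26% of all genes tested. The 40 were called on the mean of these same 4 changes, so their agreement follows in part from how they were chosen. The cultures were sequenced in bulk, so a shift in the make-up of a culture and a change per cell cannot be told apart.

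Promoters of 1 raised and 2 lowered genes are printed here to show the CpG dinucleotides, the positions that DNA methyltransferases modify. They were chosen by hand and do not stand for the raised or lowered genes. Each runs from 250 bases before to 50 bases after the start of the gene in RefSeq (GRCh38.p14), 5′ to 3′ on the strand of the gene, with every CpG in capitals. METRNL lies at chr17:83080896-83081195 on the plus strand, DNHD1 at chr11:6497030-6497329 on the plus strand and MAPKAP1 at chr9:125707159-125707458 on the minus strand.
METRNL: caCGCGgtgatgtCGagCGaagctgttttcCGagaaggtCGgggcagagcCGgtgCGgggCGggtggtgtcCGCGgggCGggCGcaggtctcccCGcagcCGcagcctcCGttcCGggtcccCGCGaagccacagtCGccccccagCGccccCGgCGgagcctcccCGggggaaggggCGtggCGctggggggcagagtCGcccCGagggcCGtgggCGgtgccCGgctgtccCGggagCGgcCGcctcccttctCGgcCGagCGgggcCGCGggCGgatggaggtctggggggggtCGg
DNHD1: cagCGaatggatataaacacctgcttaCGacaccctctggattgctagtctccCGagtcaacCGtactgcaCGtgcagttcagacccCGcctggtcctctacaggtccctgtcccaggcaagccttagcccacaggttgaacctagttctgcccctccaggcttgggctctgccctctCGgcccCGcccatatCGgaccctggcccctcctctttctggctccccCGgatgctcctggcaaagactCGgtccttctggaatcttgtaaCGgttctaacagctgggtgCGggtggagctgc
MAPKAP1: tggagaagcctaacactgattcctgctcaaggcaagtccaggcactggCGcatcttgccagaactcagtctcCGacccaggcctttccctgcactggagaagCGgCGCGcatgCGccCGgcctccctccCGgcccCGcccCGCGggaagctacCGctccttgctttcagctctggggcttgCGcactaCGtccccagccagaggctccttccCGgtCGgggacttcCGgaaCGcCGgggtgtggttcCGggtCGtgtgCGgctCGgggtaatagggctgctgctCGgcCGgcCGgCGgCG
The METRNL window holds 41 CpGs, and 6.69% of all 35116 RefSeq windows of this length hold at least as many. The MAPKAP1 window holds 28 (26.2% of windows hold as many) and the DNHD1 window 13 (51.7%). Among genes with a window in the table the median was 13 CpGs for 9 of the 15 raised genes and 32 for 19 of the 25 lowered ones, against 25 for 11560 of the 15618 genes tested. Fewer than 80% of each set had a window (60%, 76% and 74%), so a comparison of the sets is void. The counts describe sequence and not methylation, which was not measured.

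Values per library are given below in the order HH without and with romidepsin, then H9 without and with romidepsin. LPIN3, which converts phosphatidate to diacylglycerol, had 1.92, 1.34, 0.136 and 0.164 CPM at 50 nM, against 0.0823, 0.135, 0.0383 and 0.0875 CPM without azacitidine. The HH libraries at 50 nM stood well above all others, and those of H9 rested on 4 counts each. The fitted change was 3.16 ± 0.44 (adjusted p = 0.00983). From summed counts, the ratio of 50 nM to no azacitidine was 14.6 (95% counting interval 5.95 to 46.6, 63 against 5 counts) in HH and 2.42 (95% counting interval 0.582 to 14.2, 8 against 3 counts) in H9.

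CST7 encodes cystatin F, a protease inhibitor of granules in cytotoxic lymphocytes. It had 12.7, 4.39, 23.6 and 39.3 CPM at 50 nM, against 5.06, 0.856, 9.2 and 13.4 CPM without azacitidine. Each pair was higher by at least 2-fold, although the groups overlapped across lines, and the change was 1.47 ± 0.21 (adjusted p = 0.0136). METRNL, a secreted meteorin-like protein, had 0.618, 4.94, 3.23 and 3.93 CPM at 50 nM, against 0.288, 1.4, 1.38 and 1.75 CPM. It was higher in 4 of 4 pairs, by 1.35 ± 0.23 (adjusted p = 0.0279). APOBEC3B, a DNA cytidine deaminase, had 13.4, 23, 4.32 and 4.1 CPM at 50 nM, against 6.74, 8.24, 2.22 and 1.66 CPM. It stood higher in every pair and rose by 1.20 ± 0.22 (adjusted p = 0.0449), with the limit that near-identical APOBEC3 copies can share reads. SMAD7, an inhibitor of TGF-beta receptor signalling, had 1.11, 4.94, 15.8 and 14.5 CPM at 50 nM, against 0.617, 2.03, 7.75 and 6.61 CPM, a change of 1.09 ± 0.19 (adjusted p = 0.0279). LOC100506919 had 16, 32, 0.815 and 0.983 CPM, against 8.84, 11.5, 0.383 and 0.613 CPM, a change of 1.04 ± 0.19 (adjusted p = 0.0420). Both genes were higher in 4 of 4 pairs, SMAD7 from a high level in H9 and LOC100506919 from a high level in HH.

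Smaller increases were found for TUBB3, a beta tubulin of neurons, at 0.93 ± 0.17 (adjusted p = 0.0432), for FAM173A, the methyltransferase now named ANTKMT, at 0.49 ± 0.08 (0.0279), and for GGT1, a gamma-glutamyltransferase of glutathione metabolism, at 0.45 ± 0.07 (0.0182). GGT1 belongs to a family of near-identical copies and TUBB3 lies beside MC1R with shared transcripts, so reads of both may be split between genes. The other raised genes were close to absent in one line. GALNT5, an enzyme that starts mucin-type O-glycosylation, had 24.7 and 45.1 CPM in HH at 50 nM, against 1.4 and 2.25 CPM without azacitidine, and 0 counts in the 4 H9 libraries. Its change was 4.20 ± 0.18 (adjusted p = 3.5e-06), the smallest p of the comparison. Likewise in HH, the p53 relative TP73 had 33.5 and 14.4 CPM, against 15.1 and 6.53 CPM (1.11 ± 0.15, adjusted p = 0.00983), and the membrane protein EMP1 had 42.4 and 29.6 CPM, against 16.8 and 11.8 CPM (1.32 ± 0.21, adjusted p = 0.0255). In H9 these 2 genes had no more than 0.082 CPM in any library. PDGFRA, a growth factor receptor of mesenchymal cells, had a ratio of 17.4 (95% counting interval 5.59 to 87.6, 45 against 3 counts) in HH and 0 counts in the 4 H9 libraries, and the RNA gene LOC100507194, now LINC02525, a ratio of 37.1 (95% counting interval 6.21 to 1510, 32 against 1 counts) in HH. C1orf106, now INAVA, was the counterpart in H9, with 2.51 and 3.16 CPM at 50 nM, against 0.422 and 0.394 CPM, and 0 counts in HH.

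Among the lowered genes, DNHD1 had 52.4, 48.8, 24.8 and 26.3 CPM at 50 nM, against 77.2, 80.9, 42.2 and 41.7 CPM without azacitidine. It was lower in 4 of 4 pairs, by 0.70 on the log2 scale (-0.70 ± 0.07, adjusted p = 0.000485). MAPKAP1, the SIN1 subunit of mTOR complex 2, had 103, 93.3, 93.1 and 93.8 CPM, against 132, 124, 127 and 125 CPM. Its levels were close in both lines, and the groups did not overlap (-0.43 ± 0.05, adjusted p = 0.00167). TNFAIP3, the ubiquitin-editing inhibitor of NF-kB also called A20, had 209, 108, 260 and 233 CPM, against 339, 194, 300 and 320 CPM (-0.56 ± 0.10, adjusted p = 0.0285). LOC100130476, now WAKMAR2, is a long noncoding RNA gene next to TNFAIP3. It had 1.73, 1, 7.41 and 5.94 CPM, against 3, 1.8, 11 and 9.15 CPM (-0.70 ± 0.12, adjusted p = 0.0383). The neighbouring genes were thus lower together in 4 of 4 pairs. The strand setting of the counting is not given, and whether reads were shared between them was not tested.

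ATP12A, a proton and potassium pump, had 45.7 and 19.8 CPM in HH at 50 nM, against 63.7 and 32.2 CPM, and no more than 0.263 CPM in H9 (-0.66 ± 0.12, adjusted p = 0.0432). TMTC2, a mannosyltransferase of the endoplasmic reticulum, had 34.1, 26.1, 7.71 and 5.74 CPM, against 47.3, 39, 11.7 and 10.4 CPM (-0.64 ± 0.09, adjusted p = 0.00983). LSS, lanosterol synthase, had 586, 346, 178 and 133 CPM, against 717, 585, 258 and 204 CPM (-0.57 ± 0.08, adjusted p = 0.00983). All 3 were lower in every pair, though HH stood above H9 for each whatever the treatment. The squalene synthase FDFT1 (-0.56 ± 0.09, adjusted p = 0.0266), the Rab exchange factor DENND1A (-0.54 ± 0.08, 0.0136), the endosomal chloride transporter CLCN6 (-0.53 ± 0.08, 0.0136), the receptor scaffold gephyrin (GPHN, -0.50 ± 0.07, 0.0136) and RABGAP1L (-0.46 ± 0.09, 0.0495) were lower as well. So was the microtubule protein MAP4 (-0.43 ± 0.05, 0.0033), while EPB41, UVRAG, DNM2, FNBP1, STIM1, ZFAND3 and PCGF3 were lower by 0.26 to 0.41 (-0.26 to -0.41). ACACA, the acetyl-CoA carboxylase that begins fatty acid synthesis, fell by 0.35 (-0.35 ± 0.05, 0.00983). MACROD2 was mainly a gene of HH, at 2.04 and 4.18 CPM, against 7.07 and 32.1 CPM (-2.41 ± 0.40, adjusted p = 0.0279).

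**Figure D1:**
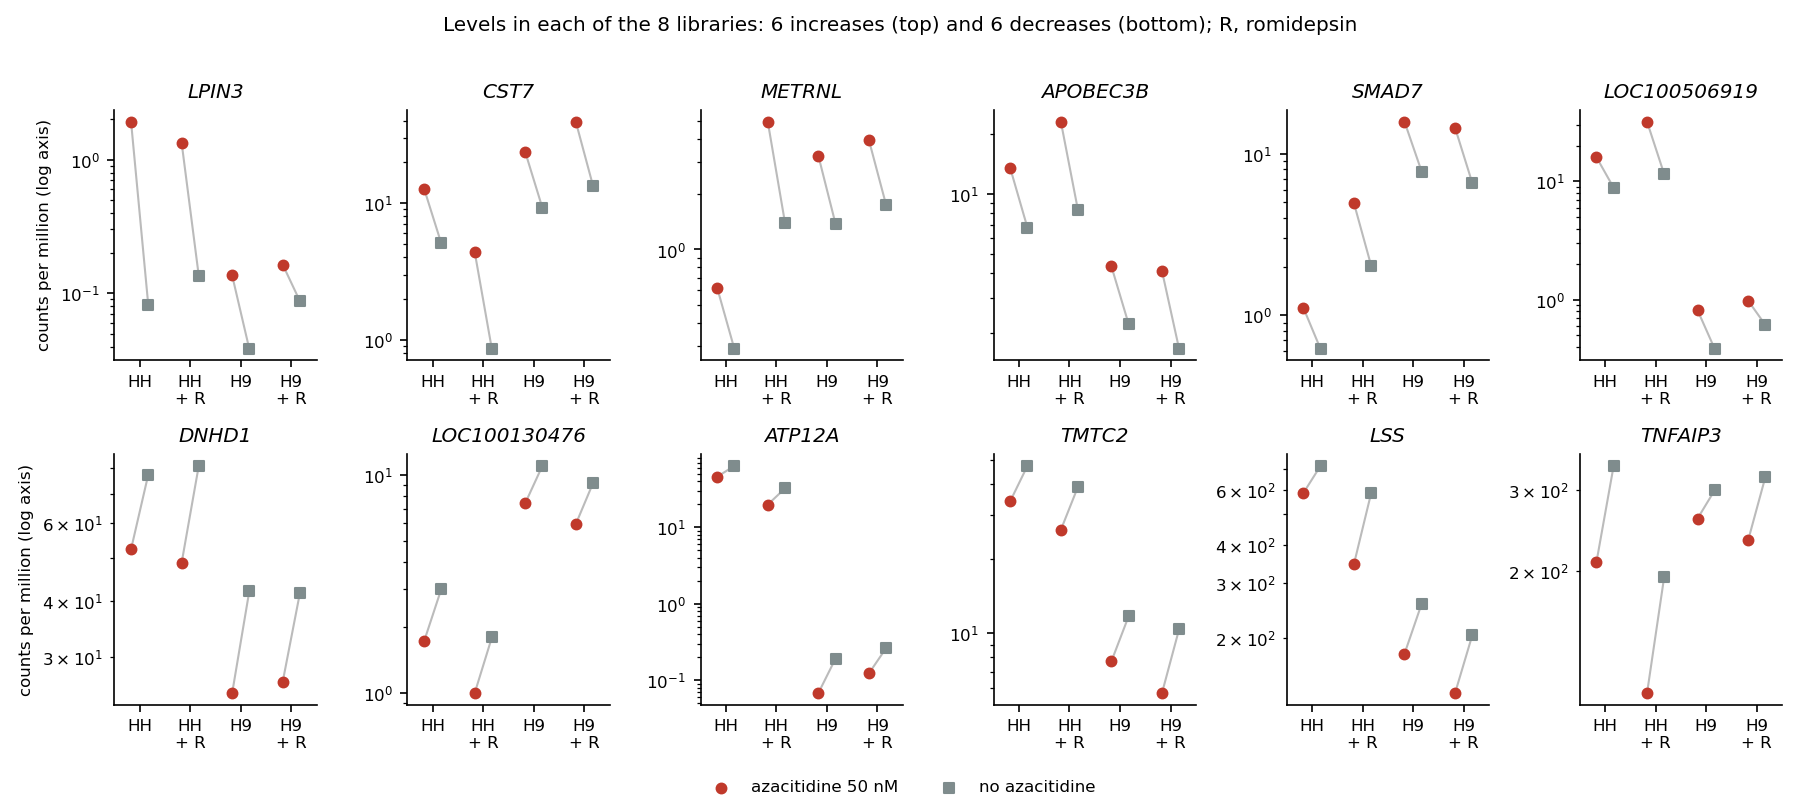
Levels of the 6 most raised and 6 most lowered genes whose 4 pairs moved the same way, in CPM on a log axis. Red circles are libraries with 50 nM azacitidine and grey squares their counterparts without it, for HH and H9 without and with romidepsin (1 library each), and the 2 points of each pair are offset the same way in all 4 pairs of each panel.

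How many genes were called rested on single libraries. Fits without 1 of the 8 libraries called 4 to 59 genes: 4 without HH at 50 nM azacitidine, 7 without H9 at 50 nM with romidepsin, 8 without HH at 50 nM with romidepsin, 11 without HH with romidepsin or without H9 at 50 nM, 16 without H9 with romidepsin and 59 without untreated HH. DNHD1 (adjusted p = 0.000931 to 0.00712), MAPKAP1 (0.00326 to 0.0214), MAP4 (0.00326 to 0.0387) and GALNT5 were called in 8 of 8 such fits. CST7 was lost without HH at 50 nM (0.062), H9 at 50 nM (0.0681) or H9 at 50 nM with romidepsin (0.0632). LPIN3 was lost without either HH library at 50 nM (0.0705 without and 0.0622 with romidepsin) or without HH with romidepsin (0.0574). TP73 was lost without the same 3 HH libraries. LSS was lost without HH at 50 nM (0.052), HH at 50 nM with romidepsin (0.0622) or H9 at 50 nM with romidepsin (0.0589), and TMTC2 and ACACA without HH at 50 nM or H9 at 50 nM with romidepsin. METRNL, SMAD7, LOC100506919, TUBB3, GGT1, ATP12A, RABGAP1L and C1orf106 kept the call only without untreated HH, and APOBEC3B, FAM173A and LOC100507194 only without untreated H9 (METRNL up to 0.124, APOBEC3B up to 0.141). TNFAIP3 kept it only without untreated H9 or H9 at 50 nM (up to 0.14), and LOC100130476 in none (0.0594 to 0.147). FDFT1, CLCN6, VPS13B and MACROD2 kept it in 3 of 8 fits and DENND1A, GPHN, PDGFRA and EMP1 in 2 of 8.

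Taken line by line, more genes passed the test, and the lines shared few of them. In HH, over 2 pairs, 378 genes were higher (2.42% of genes tested) and 216 lower (1.38%), 594 in all (3.8%). In H9 204 were higher (1.31%) and 320 lower (2.05%), 524 in all (3.36%). Of these, 68 were called in both lines, 11.4% of the HH calls and 13% of the H9 calls: 12 were higher in both, 45 lower in both and 11 moved in opposite directions. Estimates of the HH calls had the same sign in H9 for 64.6% and those of the H9 calls in HH for 70.2%, as had 55.2% of all genes. The log2 changes of the 2 pairs of a line correlated across the 15618 genes at 0.361 in HH and 0.414 in H9, and those of pairs from different lines at 0.0904 to 0.118. Genes are not independent replicates, and each pair has its own libraries. Without untreated HH 448 genes were called in HH, without HH at 50 nM 654, without HH at 50 nM with romidepsin 229 and without HH with romidepsin 91. In H9 83 genes were called without untreated H9, 80 without H9 with romidepsin, 95 without H9 at 50 nM and 62 without H9 at 50 nM with romidepsin. Of the 60 genes named for a call in HH, 18 were called in 4 of 4 such fits, and of the 43 named for H9, 7.

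The difference between the lines was itself called for 197 genes (1.26%), of which 146 (0.935%) changed more positively in HH and 51 (0.327%) in H9. Of the 197, 154 (78.2%) had estimates of opposite sign in the lines, 128 were called in HH and 67 in H9. USP11, a deubiquitinase, had 12.1 and 7.11 CPM in HH at 50 nM, against 3.7 and 2.52 CPM without azacitidine, and 257 and 237 CPM in H9 at 50 nM, against 238 and 228 CPM. It rose in HH by 1.59 ± 0.12 (adjusted p = 1.48e-05) towards a level that H9 had throughout, and the difference, HH minus H9, was 1.53 ± 0.14 (adjusted p = 0.000303). The small GTPase RAB37 (difference 1.45 ± 0.14, adjusted p = 0.000303) had 26.8 and 33 CPM in HH at 50 nM, against 12.2 and 13.4 CPM, and 104 and 95.6 CPM in H9 at 50 nM, against 114 and 119 CPM. UBA7, the activating enzyme of the ubiquitin-like protein ISG15, had 5.19 and 2.89 CPM in HH at 50 nM, against 1.65 and 0.946 CPM, and 84.1 and 74.6 CPM in H9 at 50 nM, against 95.2 and 79.4 CPM (difference 1.79 ± 0.19, adjusted p = 0.000603). These 3 genes were thus low in HH and high in H9 before treatment. MDK, the heparin-binding growth factor midkine, had 25.7 and 49.5 CPM in HH at 50 nM, against 9.58 and 9.91 CPM, and was lower in H9, at 2.17 and 3.44 CPM, against 4.18 and 5.12 CPM (difference 2.62 ± 0.28, adjusted p = 0.000639). LOC100507582, now BHLHE40-AS1, differed the other way, with 49 and 41.5 CPM in HH at 50 nM, against 63.3 and 59.9 CPM, and 2 and 5.49 CPM in H9 at 50 nM, against 0.92 and 1.58 CPM (difference -1.98 ± 0.21, adjusted p = 0.000541). It is antisense to BHLHE40, and the strand setting of the counting is not given, so the reads of the pair cannot be told apart. The differences of these 5 genes were called in 8 of 8 fits without 1 library. Those fits called 51 to 306 genes in all: 306 without HH at 50 nM, 71 without HH with romidepsin, 53 without untreated H9, 69 without H9 with romidepsin, 52 without H9 at 50 nM and 51 without H9 at 50 nM with romidepsin.

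**Figure D2:**
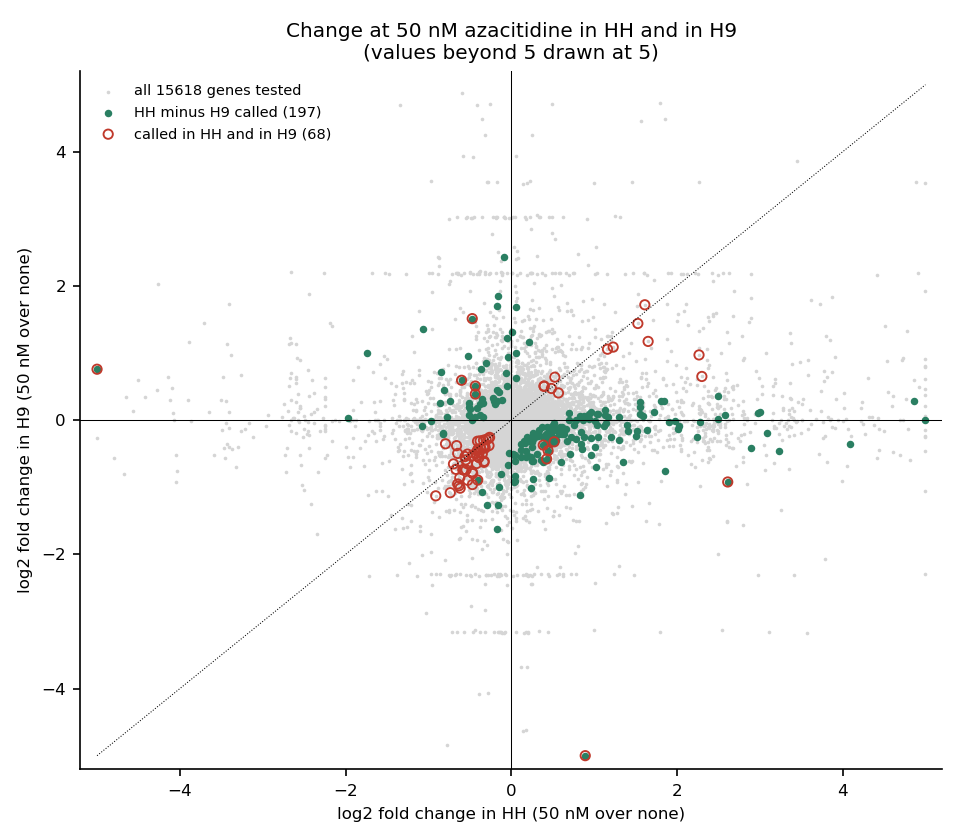
Log2 fold change of 50 nM azacitidine over none in HH (x axis) and in H9 (y axis), 1 point per gene tested. Green points are the 197 genes whose change differed between the lines, and red circles the 68 called in both lines, of which 12 lie where both changes are positive and 45 where both are negative.

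The genes lowered in both lines included RPTOR, the raptor subunit of mTOR complex 1, which was singled out after its values were seen. It had 130, 52.3, 72.8 and 60.4 CPM at 50 nM, against 203, 90.6, 141 and 136 CPM, and each pair was lower. It fell by 0.74 in HH (-0.74 ± 0.08, adjusted p = 0.000212) and by 1.08 in H9 (-1.08 ± 0.08, adjusted p = 9.38e-06), and missed the threshold over the 4 pairs (adjusted p = 0.142). WWOX, the oxidoreductase gene of a common fragile site, changed by -0.63 in HH and -0.98 in H9, and the spindle checkpoint gene MAD1L1 by -0.65 in HH and -0.95 in H9. Among the genes raised in both, the receptor kinase FGFR3 changed by 1.61 in HH and 1.72 in H9, from below 1 CPM in each line. These 3 were also chosen after their values were seen. The calls of RPTOR held without any 1 library of either line, and those of WWOX and MAD1L1 without any of H9. In HH WWOX was lost without the romidepsin library or that at 50 nM, MAD1L1 without either library with romidepsin and FGFR3 in 4 of 4 fits (in H9 in 3 of 4, all but the one without 50 nM with romidepsin).

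The lowered genes were long. By RefSeq spans from start to end of the gene (GRCh38.p14, matched for 95.3% of genes tested), the 25 genes lowered over the 4 pairs had a median span of 233 kb, and 16 (64%) exceeded 100 kb, against a median of 27.2 kb and 16.9% over 100 kb for all genes tested. The raised genes had a median of 21.5 kb. GPHN spans 1227 kb, VPS13B, a lipid transport gene lowered by 0.37 (-0.37 ± 0.06, adjusted p = 0.0276), 864 kb, RABGAP1L 836 kb, DENND1A 550 kb, TMTC2 448 kb and MAPKAP1 270 kb. In HH the lowered genes had a median of 70.7 kb and the raised 22.5 kb. In H9 the medians were 118 and 16.5 kb. The 45 genes lowered in both lines had a median of 238 kb, and RPTOR (422 kb), WWOX (1113 kb) and MAD1L1 (417 kb) are among them.

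The relation was seen across all genes and in each pair. In the 490 genes over 300 kb the median log2 change was -0.11, -0.18, -0.14 and -0.16 in the 4 pairs, against 0.00, 0.06, 0.03 and 0.02 in the 3670 genes under 10 kb. The shift is small beside the changes of called genes, and the 2021 genes of 100 to 300 kb stood between, at -0.03 to -0.08. In H9 14.7% of genes over 300 kb were called lower and none higher (0 genes), against 0.736% called lower under 10 kb. In HH 6.33% were called lower over 300 kb, against 1.25% under 10 kb. Genes over 300 kb had a median level of 9.32 CPM without azacitidine, against 10.8 CPM under 10 kb. At the higher doses, which share the libraries without azacitidine, the lowered genes had medians of 54 kb at 125 nM (493 genes, 3.16%) and 40.3 kb at 250 nM (1516 genes, 9.71%). Over the genes above 300 kb the median fitted change was -0.19, -0.21 and -0.17 at 50, 125 and 250 nM, against 0.03, 0.03 and 0.03 under 10 kb. At those doses 756 (4.84%) and 2019 (12.9%) genes were higher than without azacitidine, so that the calls came to 8% and 22.6% of genes. These figures describe the genes, and no test was made over them.

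**Figure D3:**
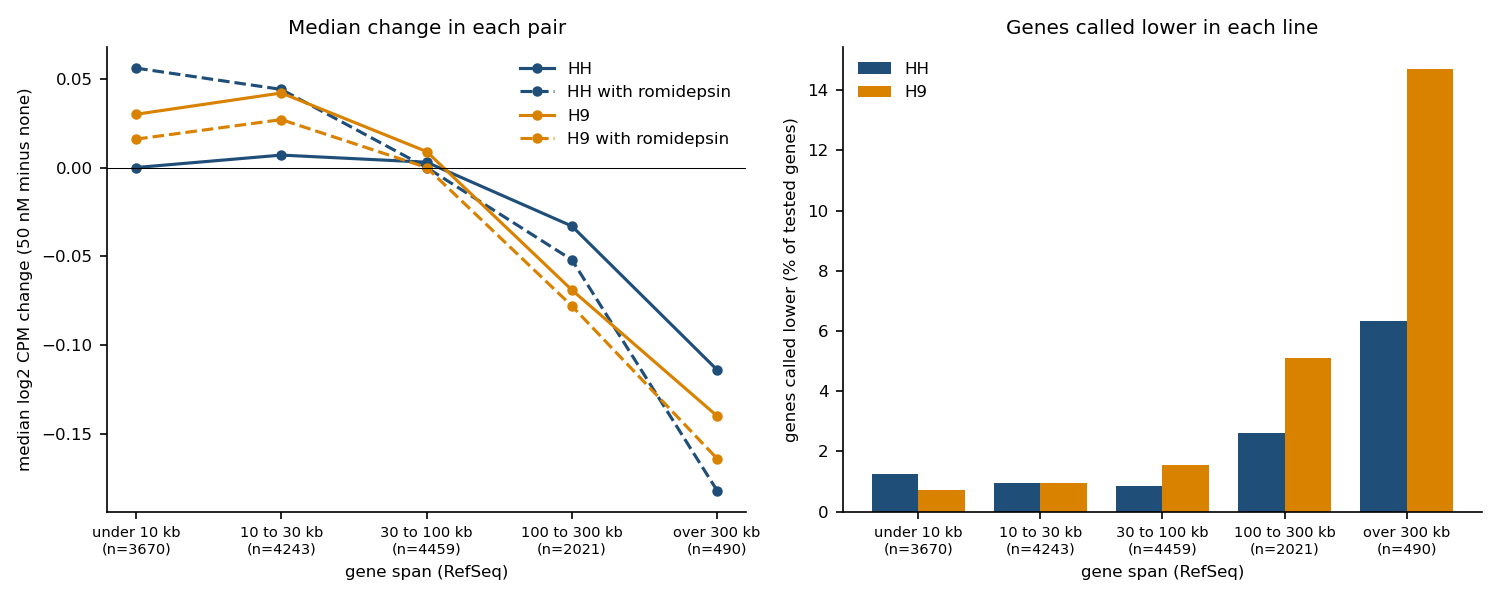
Left, median log2 change in CPM of 50 nM azacitidine over none in each of the 4 pairs (y axis) for genes binned by RefSeq span in kb (x axis). Right, share of genes in each bin called lower in HH and in H9, which reached 6.33% and 14.7% over 300 kb.

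Cholesterol synthesis runs from acetyl-CoA through mevalonate and squalene to sterols, and its genes are driven together by SREBP2. Of 24 genes of synthesis and uptake tested, 2 (LSS and FDFT1) were lower over the 4 pairs and none higher (0 genes). All 24 estimates were negative, with a median of -0.47, against 0.00 for all genes. FDFT1 had 606, 308, 456 and 351 CPM at 50 nM, against 788, 587, 556 and 524 CPM. It was lower in each pair. In HH, where 1.38% of all genes were called lower, 14 of the 24 were lower, among them ACAT2 and the mevalonate enzymes MVK (-0.72), MVD (-0.88) and FDPS (-0.83), the squalene enzymes FDFT1 (-0.67), SQLE (-0.63) and LSS (-0.55), the later steps CYP51A1, HSD17B7, EBP, SC5DL and DHCR7 (-0.83), and the sterol carrier STARD4. The HH median was -0.70. The HH pair with romidepsin also differs in romidepsin dose, so the drugs cannot be told apart in it. There FDPS changed by -1.07, against -0.58 without romidepsin, and DHCR7 by -1.05, against -0.61. Over both lines 21 of the 24 estimates were more negative with romidepsin than without (median -0.30) and 3 more positive, with 0 differences called. In H9 LSS (-0.59) was the 1 gene called lower, and the median was -0.19 with 21 of 24 estimates negative. FDPS, farnesyl diphosphate synthase, had 308 and 185 CPM in HH at 50 nM, against 454 and 382 CPM, and 191 and 180 CPM in H9 at 50 nM, against 212 and 212 CPM. Its difference between the lines was -0.62 (adjusted p = 0.0325), and that of the last-step enzyme DHCR7 -0.63 (adjusted p = 0.0476). Both differences were lost in 6 of 8 fits without 1 library (up to 0.188 and 0.264), all but those without untreated HH or HH at 50 nM. The other 22 differences missed the threshold. Of 12 genes of fatty acid synthesis, ACACA was the 1 called over the 4 pairs. In HH ACLY, ACACA and ELOVL5 were lower, but ACLY and ELOVL5 were lost without either HH library with romidepsin (ELOVL5 up to 0.403) and ACACA in 3 of 4 fits, all but that without HH at 50 nM. The HH calls of ACAT2, FDPS and DHCR7 held without any 1 HH library, and the other 11 were lost without HH with romidepsin, among them LSS, FDFT1, MVK, SQLE and EBP also without HH at 50 nM with romidepsin, and CYP51A1, HSD17B7 and SC5DL also without that library or untreated HH. The H9 call of LSS was lost without either H9 library with romidepsin.

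MHC class II molecules present peptides to CD4 T cells and are made by activated human T cells. None of 17 genes of this pathway tested was called over the 4 pairs (0 genes), and 17 of 17 estimates were positive, with a median of 0.29. In H9, where 1.31% of all genes were called higher, 8 of the 17 were higher, with a list median of 0.64: HLA-DRA, HLA-DRB1 (0.79), HLA-DRB5 (1.00), HLA-DQA2 (0.88), HLA-DPA1 (0.71), HLA-DPB1 (0.90), the peptide exchange factor HLA-DMA (0.85) and the lysosomal thiol reductase IFI30 (0.64). HLA-DRB1, HLA-DRB5 and HLA-DQA2 have near-identical copies and are uncertain. HLA-DRA, the alpha chain of HLA-DR, had 25.4 and 39 CPM in H9 at 50 nM, against 6.86 and 20.4 CPM without azacitidine. HH held the gene at 564 and 482 CPM at 50 nM, against 535 and 485 CPM. The H9 values thus rose, by 1.32 ± 0.18 (adjusted p = 0.00395), far below the level of HH, and the difference between the lines was -1.30 ± 0.23 (adjusted p = 0.0271). In HH IFI30 (0.53) was the 1 member called, with a list median of 0.13. IFI30 had 46.1, 53.1, 47.2 and 51.9 CPM at 50 nM, against 35.7, 32, 30.3 and 32.3 CPM, groups that did not overlap. The HLA-DRA call in H9 held without any 1 H9 library, but the difference between the lines was lost without HH with romidepsin, either HH library at 50 nM or H9 at 50 nM (0.0696 to 0.108). The other 7 H9 calls were each lost in 2 to 4 of 4 fits without 1 library (0.0521 to 0.402), and that of IFI30 in HH without either library with romidepsin.

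The summed level of the class II genes was 639.7 and 759.2 CPM in H9 at 50 nM, against 491.2 and 636.1 CPM, and 6674 and 5800 CPM in HH at 50 nM, against 6174 and 5273 CPM. Markers of B cells, which also carry class II, summed to 140.2 and 133.6 CPM in H9 at 50 nM, against 125.7 and 138.8 CPM, and those of myeloid cells to 10.84 and 13.93 CPM, against 10.05 and 14.01 CPM. None of the 7 B-cell and 7 myeloid markers tested was called over the 4 pairs (0 genes).

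Genes of cytotoxic and natural killer lymphocytes include the granule proteins by which T cells kill. Of 13 tested, CST7 was called over the 4 pairs, 12 of 13 estimates were positive, and the median was 0.81. In H9, where 1.31% of all genes were called higher, 6 were higher. Granulysin (GNLY), a pore-forming peptide of granules, had 40 and 42.9 CPM in H9 at 50 nM, against 14.1 and 20.7 CPM (1.25 ± 0.17, adjusted p = 0.00145). NKG7, a granule membrane protein, had 80.5 and 84.8 CPM, against 46.7 and 42.2 CPM (0.87 ± 0.10, adjusted p = 0.000546). In both the H9 groups did not overlap. The granzymes GZMA (61.3 and 65.8 CPM, against 37 and 33.1 CPM, adjusted p = 0.0232) and GZMK (33.3 and 27.9 CPM, against 21 and 14.4 CPM, adjusted p = 0.00351) were higher, as was EOMES, a transcription factor of cytotoxic cells (40.6 and 93.8 CPM, against 25.7 and 38.6 CPM, adjusted p = 0.00544). CST7 rose by 1.44 ± 0.16 in H9 (adjusted p = 0.000439) and by 1.53 ± 0.22 in HH (adjusted p = 0.00186). It was the 1 member called in HH, where 2.42% of all genes were called higher. The summed level of the list in HH was 20.15 and 17.37 CPM at 50 nM, against 9.459 and 6.711 CPM, well below the 583.9 and 671 CPM of H9 at 50 nM, against 394.9 and 422.9 CPM. The sum does not describe most members in HH, where the list median was 0.11, with 8 estimates positive and 5 negative. Of the tested members CST7 (2.96 CPM) and PRF1 (2.88 CPM) were the highest in HH without azacitidine, and NKG7 came next at 0.592 CPM. The calls of CST7 (in each line) and NKG7 held without any 1 library of the line. GNLY was lost without untreated H9 (0.0534), EOMES without either H9 library with romidepsin, GZMK in 3 of 4 fits (all but that without H9 at 50 nM) and GZMA in 4 of 4 (0.0779 to 0.35).

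**Figure D4:**
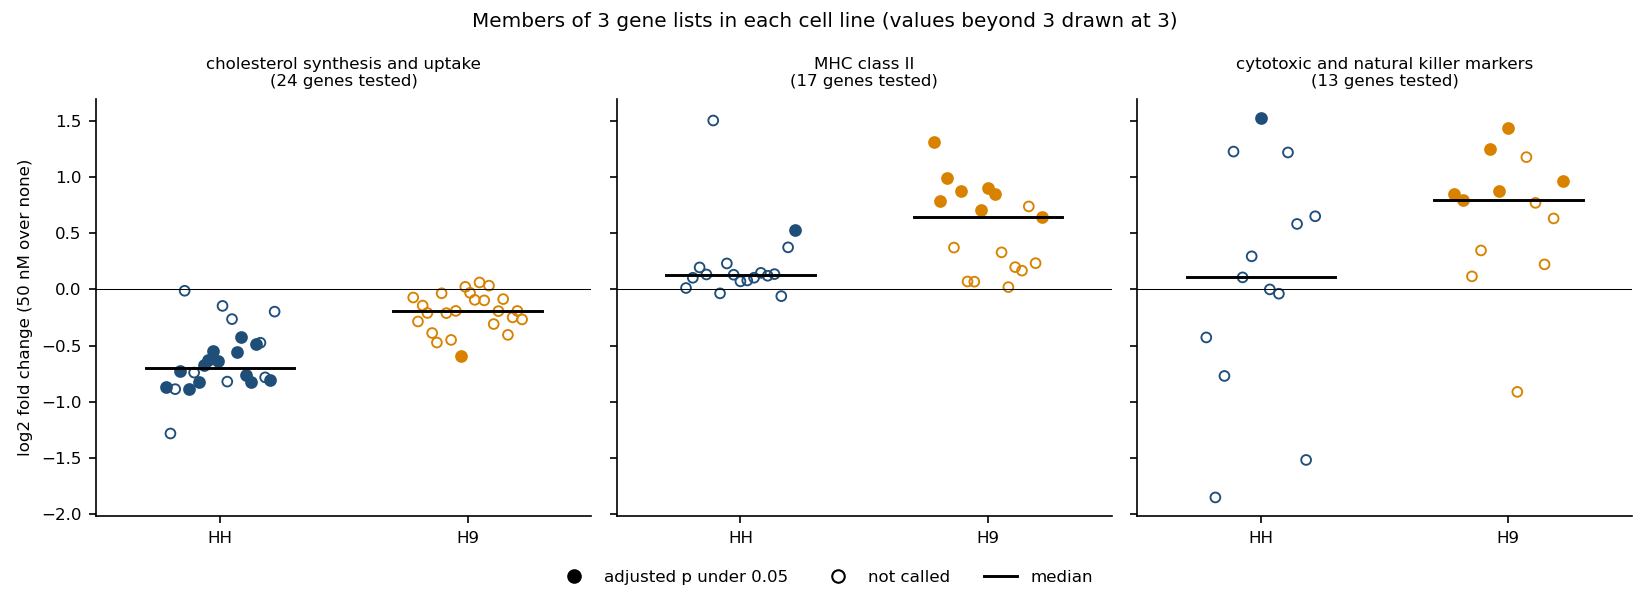
Log2 fold change of 50 nM azacitidine over none in HH and in H9 for each tested gene of cholesterol synthesis and uptake (24), MHC class II (17) and cytotoxic and natural killer lymphocytes (13). Filled points passed an adjusted p under 0.05 in that line, and open points did not.

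Of 23 cytokines and chemokines none was called over the 4 pairs (0 genes). Over all genes 2.42% were called higher and 1.38% lower in HH, and 1.31% and 2.05% in H9. In HH CCL3 was lower, at 4.08 and 1.59 CPM at 50 nM, against 10.9 and 5.99 CPM, and CXCL10, the interferon-induced chemokine, was lower at 21 and 6.32 CPM, against 38.7 and 15.1 CPM. In H9 IL10, CCL5, TNFSF10 and the chemokine of cytotoxic cells XCL1 were higher. XCL1 had 5.81 and 19 CPM at 50 nM, against 2.15 and 5.08 CPM (1.68 ± 0.25, adjusted p = 0.0026). CXCL10 had 2.68 and 1.6 CPM in H9 at 50 nM, against 0.959 and 0.7 CPM, so that its change differed between the lines (-2.43, adjusted p = 0.00861). Of 22 NF-kB targets TNFAIP3 was called over the 4 pairs, and in HH it was joined by TRAF1, an adaptor of TNF receptors, while in H9 4 were higher and 2 lower. TRAF1 had 572 and 237 CPM in HH at 50 nM, against 1050 and 556 CPM, and 244 and 250 CPM in H9 at 50 nM, against 244 and 277 CPM (difference -0.98, adjusted p = 0.0198). Of 28 checkpoint and costimulatory genes none was called over the 4 pairs (0 genes), while the costimulatory receptor TNFRSF9 was lower in HH by 1.74 (-1.74). It had 2.66 and 0.544 CPM in HH at 50 nM, against 7.86 and 2.3 CPM, and 22.8 and 26.9 CPM in H9 at 50 nM, against 10.5 and 14.1 CPM, so that the lines differed (-2.75, adjusted p = 0.0228). The costimulatory ligand CD70 was higher in H9, at 34.7 and 33.1 CPM, against 19.4 and 21.9 CPM (0.71 ± 0.12, adjusted p = 0.00407). The call of TNFRSF9 in HH was lost in 4 of 4 fits without 1 library and that of CD70 in 3 of 4, all but that without H9 at 50 nM with romidepsin. CCL3 and CXCL10 in HH and XCL1 in H9 were each lost without either library of the line with romidepsin, IL10 and TNFSF10 in 4 of 4 fits (TNFSF10 up to 0.238), and CCL5 without untreated H9 or H9 at 50 nM (0.317 and 0.319). The difference of CXCL10 was lost without untreated H9 or either H9 library at 50 nM (up to 0.176), and that of TRAF1 without 5 libraries: either HH library with romidepsin, untreated H9, H9 with romidepsin or H9 at 50 nM (up to 0.12). TNFAIP3 and TRAF1 in HH were called in 4 of 4 fits.

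Of 31 pro-apoptotic genes TP73 was called over the 4 pairs. In HH, where 2.42% of all genes were called higher and 1.38% lower, TP73, BID, CASP6 and CASP10 were higher. The death receptor FAS was lower there (-0.47). In H9 none was called (0 genes), against 1.31% of all genes higher and 2.05% lower. BID, the BH3 protein that links death receptors to mitochondria, had 1.48 and 3.85 CPM in HH at 50 nM, against 0.658 and 0.631 CPM, and 62.5 and 63.8 CPM in H9 at 50 nM, against 65.1 and 60.2 CPM (difference 1.99, adjusted p = 0.0344). CASP10, an initiator caspase, had 1.17 and 0.837 CPM in HH, against 0.288 and 0.18 CPM, and 20 and 20.5 CPM in H9, against 21.5 and 22.2 CPM (difference 2.14, adjusted p = 0.0326). Like USP11, both stood at a low level in HH and a higher one in H9. Of 9 anti-apoptotic genes none was called over the 4 pairs (0 genes). In HH MCL1 (-0.33) and the caspase inhibitor CFLAR (-0.51) were lower. In H9 BCL2 was lower, at 20.6 and 19.8 CPM, against 34.1 and 36 CPM (-0.82 ± 0.13, adjusted p = 0.00399). BID in HH was lost without either library with romidepsin and CASP10 in 3 of 4 fits (all but that without HH at 50 nM with romidepsin), and the difference of BID in 7 of 8 (up to 0.344, kept without untreated HH) and that of CASP10 in 8 of 8 (0.0512 to 0.2). MCL1 was lost in 4 of 4 (0.0504 to 0.36), CASP6 in 3 of 4 (all but that without HH at 50 nM) and FAS without either HH library with romidepsin. CFLAR held in 4 of 4 fits, and BCL2 was lost in 4 of 4 (0.0537 to 0.123).

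Of 33 genes of T-cell receptor signalling and identity, none was called over the 4 pairs (0 genes). In HH, where 2.42% of all genes were called higher and 1.38% lower, CD5, LAT, LCP2 and GATA3 were higher and CD247 and FYN lower. In H9 (1.31% of all genes higher, 2.05% lower) CD8A was higher, and CD247, TCF7, LEF1, BCL11B and TOX lower. The change differed between the lines for the adaptor LCP2 (1.12, adjusted p = 0.0111), CD5 (0.63, adjusted p = 0.0118) and GATA3 (0.52, adjusted p = 0.0127). LCP2 had 3.59 and 2.93 CPM in HH at 50 nM, against 1.97 and 1.49 CPM, and 86.7 and 96.7 CPM in H9 at 50 nM, against 106 and 109 CPM. In HH CD5 and GATA3 were lost without either library with romidepsin, LCP2 in all but the fit without untreated HH, LAT in all but that without HH at 50 nM with romidepsin, and CD247 and FYN in 4 of 4. In H9 CD8A, CD247, TCF7, LEF1, BCL11B and TOX were each lost in 4 of 4 fits without 1 library. The 3 differences were lost in 3 to 6 of 8 fits (0.0532 to 0.116), each among them without HH with romidepsin, untreated H9 or H9 at 50 nM with romidepsin.

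Of 60 interferon-stimulated genes none was called over the 4 pairs (0 genes), and 43 estimates were positive. In HH, where 2.42% of all genes were called higher, IFITM1 (0.87), TRIM25 and LY6E were higher. In H9, where 1.31% of all genes were called higher, IFI16, IFITM2 and DTX3L were. The rise of DTX3L and IFITM2 was larger in HH, where neither was called. The log2 changes of DTX3L were 1.73 and 1.87 in the HH pairs, against 0.32 and 0.43 in H9. Those of IFITM2 were 0.69 and 1.18, against 0.46 and 0.29, and those of IFI16 0.29 and 0.19, against 0.27 and 0.42. The first 3 calls were lost without either HH library with romidepsin, and the 3 of H9 in 4 of 4 fits without 1 library. Of 24 nucleic acid sensors 4 were higher and 1 lower in H9, where 1.31% of all genes were called higher and 2.05% lower. Of 41 hypoxia and glycolysis genes none was called over the 4 pairs (0 genes) and 36 estimates were negative. TPI1, GAPDH and VEGFA were lower in HH (as were 1.38% of all genes) and GPI in H9 (as were 2.05%). These calls were lost without either library of the line with romidepsin, and that of GPI also without H9 at 50 nM. Of 52 cell cycle genes, 24 of MHC class I and 26 p53 targets, none was called over the 4 pairs (0 in each list). Of 27 enzymes of DNA methylation and cytidine deamination, APOBEC3B was higher over the 4 pairs, and no DNA methyltransferase was called (0 genes).

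Cancer testis antigens on the X chromosome are normally restricted to germ cells by promoter methylation. Of 109 such genes in the files 21 passed the filter on low counts, and none was called over the 4 pairs or in H9 (0 genes). Of the 21 estimates 17 were positive over the 4 pairs, with a median of 1.81 against 0.00 for all genes. The medians were 2.22 in HH and 0.00 in H9. These fitted values rest on few counts: without azacitidine 13 of the 21 had no more than 3 counts over both HH libraries and 18 no more than 3 over both H9 libraries. With counts below 3 set to 3, and genes at 3 or fewer in both groups left out, the log2 ratio in HH was positive for 9 and negative for 3 of 12 genes, with a median of 1.22, and in H9 positive for 1 and negative for 3 of 4, with a median of -0.04. The filter ran over libraries of all 4 doses, so a member can pass through the higher ones, and these counts and medians describe the tested members only. The summed level of the 109, carried by a few high members, was 21.39 and 7.7 CPM in HH at 50 nM, against 20.97 and 11.57 CPM, and 35.98 and 30.77 CPM in H9 at 50 nM, against 35.7 and 34.62 CPM. The sum was higher at 50 nM in 2 of 4 pairs. In HH 2 members moved in opposite directions. MAGEB1 had 3.96 and 1.84 CPM at 50 nM, against 0.946 and 0.405 CPM, and PASD1 had 9.83 and 3.43 CPM, against 17.1 and 9.64 CPM. H9 held MAGEB1 at 35.4 and 30.3 CPM at 50 nM, against 34.7 and 34.2 CPM, and the change differed between the lines (2.11, adjusted p = 0.0057). Of 38 autosomal germline genes tested none was called over the 4 pairs (0 genes), and in HH GTSF1, a factor of piRNA-guided silencing, was higher. It had 3.21 and 2.05 CPM in HH at 50 nM, against 0.288 and 0.315 CPM, and 143 and 143 CPM in H9 at 50 nM, against 125 and 133 CPM. The difference between the lines was 2.88 ± 0.45 (adjusted p = 0.00784). It was lost without HH with romidepsin (0.0832), as was the HH call (0.0551), and PASD1 was lost without either HH library with romidepsin.

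Starting levels of the raised genes differed between the lines. Of the 378 genes raised in HH, 72 (19%) stood below 1 CPM without azacitidine, as did 20.9% of all genes tested, and 29 of the 72 (40.3%) stood above 10 CPM in H9, against 15.5% of all genes that were below 1 CPM in HH. In H9 13 of 204 (6.37%) stood below 1 CPM, against 17.2% of all genes tested, and 2 of the 13 were above 10 CPM in HH. A gene low in one line passes the filter on counts more readily if it is high in the other or after treatment, so these shares are given as a description.

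Whether romidepsin altered the response to 50 nM azacitidine was asked by comparing the pairs with and without it, and the change differed for 0 genes by edgeR's quasi-likelihood test, with 78 (0.499%) at an unadjusted p under 0.05. DESeq2 gave 0 genes with 32 under 0.05, and limma-voom 0 with 110. No gene was called within the 2 pairs with romidepsin or within the 2 without it (0 in each). These fits let dose act alike in HH and H9, so differences between the lines in their response count as spread. For the difference, p-values under 0.05 were rarer than the share of 0.05 that chance alone gives. The test could thus hardly call a gene, and its 0 calls say little. Of the 5 genes with the smallest p, LOC100507300 and ZP1 stood below 1 CPM on average. The change of the chemokine receptor CXCR3 was more positive with romidepsin by 0.81 ± 0.24 (unadjusted p = 0.00755, adjusted p = 1). It had 4.02 CPM in HH and 35.7 CPM in H9 with both drugs, against 1.17 and 18 CPM with romidepsin alone, and 8.96 and 43.9 CPM with azacitidine alone, against 6.42 and 35 CPM untreated. FDFT1 (-0.44 ± 0.14, unadjusted p = 0.00956) and the zinc finger gene PLAG1 (-0.67 ± 0.20, unadjusted p = 0.00772) had a more negative estimate with romidepsin and also missed the threshold. A p above the threshold does not show that the responses were alike, and in HH the pair with romidepsin also differs in romidepsin dose.

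Set against the next doses in the same lines, 21 genes were higher at 125 than at 50 nM (0.134%) and 1 lower (0.0064%), 22 in all (0.141%). At 250 nM 798 were higher than at 50 nM (5.11%) and 463 lower (2.96%), 1261 in all (8.07%). These comparisons share the 50 nM libraries with the one above, so the levels are given side by side. At 0, 50, 125 and 250 nM the summed X-linked cancer testis genes were 20.97, 21.39, 54.22 and 176.6 CPM in HH and 35.7, 35.98, 49.5 and 68.56 CPM in H9. With romidepsin they were 11.57, 7.7, 45.92 and 151.1 CPM in HH and 34.62, 30.77, 39.37 and 61.86 CPM in H9. The sum thus stood above its level without azacitidine from 125 nM on in each of the 4 series. Of the 21 members tested 4 were higher at 125 than at 50 nM and 18 at 250 than at 50 nM. The filter ran over libraries that include those doses, and a member that passed through them had to differ, so these counts describe the members that passed and lend no support to a rise of the list. PNMA5 had 0.123, 0.433, 5.97 and 45.1 CPM in HH over the 4 doses, and 0, 0.126, 4.89 and 27.6 CPM with romidepsin. CTAG2, a testis antigen with near-identical copies, had 0, 0.124, 2.52 and 4.88 CPM in HH, and 0.045, 0.167, 4.24 and 8.53 CPM with romidepsin.

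Genes called at 50 nM took different courses at the higher doses. LPIN3 had 0.0823, 1.92, 7.66 and 10.6 CPM in HH and 0.0383, 0.136, 0.785 and 1.49 CPM in H9, and was higher at 125 than at 50 nM by 1.93 ± 0.26 (adjusted p = 0.0111). CST7 had 5.06, 12.7, 30.6 and 35.2 CPM in HH and 9.2, 23.6, 40.9 and 43.8 CPM in H9. Both stood higher at each dose in these series, while GALNT5 had its increase at 50 nM, with 1.4, 24.7, 30.7 and 22.9 CPM in HH and 2.25, 45.1, 54.7 and 37.5 CPM with romidepsin. DNHD1 stood lower at each dose, with 77.2, 52.4, 45.7 and 34.4 CPM in HH and 42.2, 24.8, 21.5 and 17.6 CPM in H9. VPS13B was lowest at 50 nM, with 95, 73.2, 85.8 and 96.8 CPM over the 4 doses in HH and 44.8, 33.3, 35.3 and 44.6 CPM in H9, and stood higher at 250 than at 50 nM by 0.39 ± 0.06 (adjusted p = 0.0021). RPTOR had 203, 130, 180 and 270 CPM in HH, a course with its lowest level at 50 nM, and 141, 72.8, 74.4 and 66.3 CPM in H9, where it stayed low. Over the 15 raised genes the median change from no azacitidine was 1.32, 1.94 and 2.25 at 50, 125 and 250 nM, and over the 25 lowered genes -0.46, -0.56 and -0.63. Of the raised genes 2 were higher at 125 than at 50 nM (LPIN3 and TP73) and 7 at 250 than at 50 nM. Of the lowered genes 7 were lower and 2 higher at 250 than at 50 nM. Without any 1 of the 8 libraries, 3 to 9 genes were called between 125 and 50 nM. Between 250 and 50 nM 650 genes were called without HH at 50 nM, 541 without H9 at 50 nM, 492 without H9 at 50 nM with romidepsin and 621 without H9 at 250 nM with romidepsin. DPEP1, a dipeptidase, and PNMA5 were called in 8 of 8 such fits, TP73 in 0 of 8, LPIN3 in 1 of 8 and CTAG2 in 7 of 8, lost without 1 HH library with romidepsin and azacitidine (0.109).

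**Figure D5:**
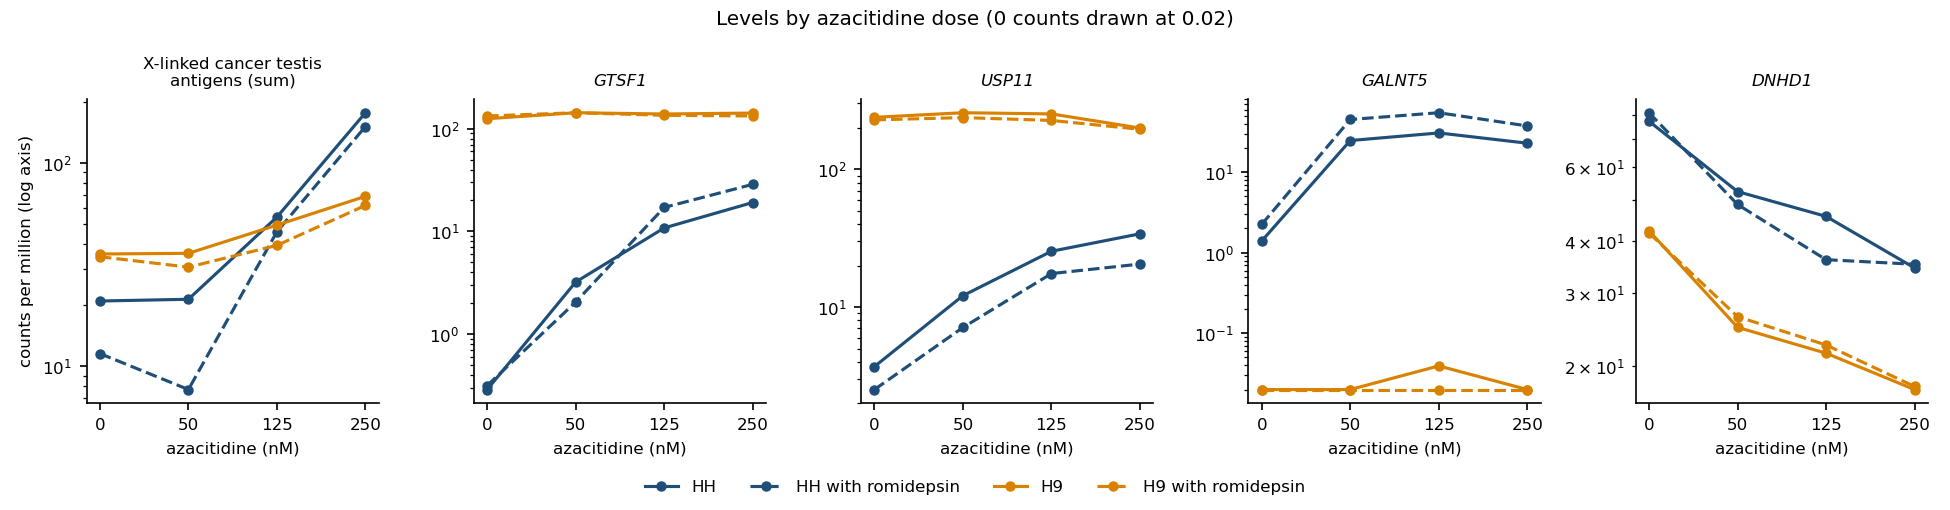
Level in CPM (log axis) at 0, 50, 125 and 250 nM azacitidine for the sum of the 109 X-linked cancer testis genes and for GTSF1, USP11, GALNT5 and DNHD1, with 1 line per series of HH and H9 without and with romidepsin and 1 library per point. GALNT5 in HH lay at 24.7 and 45.1 CPM at 50 nM, against 1.4 and 2.25 CPM without azacitidine, while the sum lay at 21.39 and 7.7 CPM, against 20.97 and 11.57 CPM, and libraries with 0 counts are drawn at the bottom of the panel.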

How the data were processed

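RNA was sequenced on a NextSeq 500 from TruSeq Stranded mRNA libraries, per the labels, which mention poly(A) RNA as well as depletion of ribosomal RNA. STAR, DESeq2, limma and GRCh37.p2 are named, per the submitters' processing notes. The counting program, its annotation and its strand setting were not given in the sources used here. Raw counts were deposited by the authors for 25559 gene symbols per library and were used unchanged.

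The 16 HH and H9 libraries at 0, 50, 125 and 250 nM entered edgeR's quasi-likelihood F test (edgeR 4.0.16, R 4.3.3; filterByExpr with a minimum count of 10 and minimum total of 15, TMM scaling, Benjamini-Hochberg adjustment over all genes tested). A block of line by romidepsin plus dose gave the 4-pair effect. Terms for dose within line, and within romidepsin status, gave the others. Libraries were paired by cell line and romidepsin status, and paired libraries' deviations from the dose means correlated at 0.955 to 0.966. Libraries of the same line but other romidepsin status correlated at 0.902 to 0.949, and those of different lines negatively. The dose means span both lines, so the difference between the lines sets much of these correlations. No libraries were duplicates (chi-square of at least 6.07 per gene, above sampling noise). A standard error is the log2 change over the root of its F value. Fits were also run on simulated counts, in which well-counted genes changed alike in both lines. Changes at low counts or in 1 line only were not simulated. Floors and counting intervals (95%, exact conditional binomial) cover counting error only. Spans and promoters came from RefSeq GRCh38.p14. The alternatives were other normalization, DESeq2 1.42.0, limma-voom 3.58.1, other filters, other sets of libraries, no block, and leaving out each library.

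Named genes were up to 15 increases (9 qualified) and the 12 largest decreases with 4 pairs in 1 direction, other called genes named as such after their values were seen, called list members and the 5 smallest p-values of each difference. Some called genes are not reported here. The members and lists were chosen with earlier results of these data known, and 1 autosomal gene was later taken off the X-linked list.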

Additional observations from a re-analysis of the deposited data

Results flagged for a closer look

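Among 25 genes examined for a pair that stood far from the other 3, GGT1 was the 1 found: its change was 0.29 in the HH pair without romidepsin, below the other 3 pairs. Chance alone marks about 1 in 20 such groups of 4.

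The change at 50 nM differed between the lines (HH minus H9, edgeR's quasi-likelihood test) for 24 of the named genes. It was more positive in HH for USP11 (1.53), RAB37 (1.45), UBA7 (1.79), MDK (2.62), MAGEB1 (2.11), GTSF1 (2.88), LCP2 (1.12), CD5 (0.63), GATA3 (0.52), CASP10 (2.14), BID (1.99) and IFITM1 (0.81). LRRN3, a leucine-rich repeat neuronal protein, differed by 3.53 ± 0.34 (adjusted p = 0.00104), with 12.9 and 43.2 CPM in HH at 50 nM, against 3.13 and 5.31 CPM without azacitidine, and 18.1 and 30 CPM in H9 at 50 nM, against 38.9 and 48.8 CPM. The calcium pump ATP2A3 differed by 0.84 ± 0.10 (adjusted p = 0.00104), with 87.4 and 133 CPM in HH at 50 nM, against 62.1 and 88.9 CPM, and 444 and 436 CPM in H9 at 50 nM, against 569 and 517 CPM. Both genes thus stood higher at 50 nM in each HH pair and lower in each H9 pair. The change was more positive in H9 for LOC100507582 (-1.98), CFLAR (-0.72), CXCL10 (-2.43), TRAF1 (-0.98), HLA-DRA (-1.30), IRF5 (-0.95), FDPS (-0.62), DHCR7 (-0.63), TNFRSF9 (-2.75) and CD70 (-0.76). IRF5, an interferon regulatory factor, had 52.9 and 60.8 CPM in HH at 50 nM, against 52 and 44.8 CPM, and 4.11 and 6.6 CPM in H9 at 50 nM, against 1.61 and 3.15 CPM. Its difference was lost in 6 of 8 fits without 1 library (0.0501 to 0.183), all but those without either HH library at 50 nM.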

How the results depend on the processing

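The count of 40 genes over the 4 pairs became 300 with DESeq2 (130 higher, 170 lower, 39 of the 40 among them), 106 with limma-voom (37 of the 40), 341 with the 8 compared libraries alone (40 of the 40), and 4 to 59 without 1 library. Other size factors gave 38, all 32 libraries 35 (12 of the 40), no filter 45 and at least 10 counts in every library 29. The pairing is by cell line, and without the replicate block 0 genes were called, with 171 at an unadjusted p under 0.05, as were 0 for 125 minus 50 nM and 0 for 250 minus 50 nM. In HH alone the count of 594 became 204 with the 8 libraries of the line alone, an alternative added after the data were seen, and 91 to 654 without 1 library. In H9 alone 524 became 1739 with the 8 libraries of the line alone and 62 to 95 without 1 library. The 197 differences between the lines became 356 with DESeq2 and 51 to 306 without 1 library. The count of 22 for 125 minus 50 nM became 51 with DESeq2, 2 with limma-voom, 1 with at least 10 counts in every library and 3 to 9 without 1 library, and the 1261 for 250 minus 50 nM became 492 to 1372 without 1 library. With minus without romidepsin the count was 0 in each fit without 1 library, in a test that could hardly call a gene. Over the named genes 1957 values were recomputed: 1357 kept their side of the threshold, 600 kept direction without the call and 0 called changes turned round. A change of sign with no call in either fit was not counted as a turn. The fits share most libraries, so few turns could arise. The causes were not tested.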

Other observations

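In HH the imprinted RNA gene H19, chosen after its values were seen, had 17 and 10 counts at 50 nM (1.05 and 0.418 CPM), against 0 and 0 counts without azacitidine, and was at least 10.4-fold higher against a floor of 3 counts over both libraries. Its call in HH was lost without untreated HH or without HH with romidepsin (0.0652 to 0.368).

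Of 9 epithelial markers tested none was called over the 4 pairs (0 genes). EPCAM and KRT18 were called higher in H9, as were 1.31% of all genes. Both calls rested on single libraries: EPCAM was lost in 4 of 4 H9 fits without 1 library (0.214 to 0.273) and KRT18 in 3 of 4 (up to 0.316), all but that without H9 with romidepsin. Among the 8 markers of fibroblasts and endothelium PDGFRA was called over the 4 pairs. Of 34 neuronal genes tested TUBB3 was called over the 4 pairs.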
